A study of Homo sapiens with 4 samples.

Results

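Genes induced by interferon, together with the receptors and the cytosolic nucleic-acid sensors that act before them, were followed across 4 prostate cancer cell lines by RNA sequencing. The members were taken by gene symbol from a named list of 47 genes, in which RIGI and its older symbol DDX58 count as 1 gene. Of these, 45 were among the 22637 genes of the count table, namely 32 induced genes and 13 sensing and signal genes, and OAS2 and SAMD9L were not analysed here. The rule goes by gene symbol and uses no measured value. RIGI, IFIH1, STAT2 and IRF9 were placed with the sensing and signal genes by their role, which does not mean that interferon leaves them unchanged.

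The study asked how resistance to olaparib, an inhibitor of the DNA repair enzyme PARP, alters prostate cancer cells. LNCaP is a castration-sensitive line from a lymph node metastasis of a prostatic adenocarcinoma, and C4-2B descends from it and is castration-resistant. LN-OlapR and 2B-OlapR are the resistant lines grown out of LNCaP and C4-2B, respectively, by long exposure to rising olaparib, and all 4 lines are labelled as untreated for the RNA harvest. Each line gave 1 library of stranded mRNA, so every comparison is of 1 library with 1 library and no test between lines was possible. A resistant line is also a single selected population, and resistance, separate passage and earlier growth in the drug cannot be told apart. The resistant lines were kept in olaparib, and per the study's design text the drug was left out of the medium before the harvest.

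Double-stranded RNA in the cytosol is bound by RIG-I (RIGI) and MDA5 (IFIH1), which signal through MAVS, whereas cytosolic DNA is bound by cGAS (CGAS), whose product activates STING (STING1). Both routes meet at the kinase TBK1 and the transcription factor IRF3, which switch on interferon genes. Secreted type I interferon binds IFNAR1 and IFNAR2, the kinases JAK1 and TYK2 phosphorylate STAT2, and STAT2 joins IRF9 in a complex that binds the interferon-stimulated response element (ISRE) of antiviral genes. LNCaP cells are known for a poor response to interferon and a defect in JAK1, and PARP inhibitors are known for exposing cells to cytosolic DNA from unrepaired breaks.

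Most promoters of the induced genes held the ISRE core. The core was searched as GAAA, any 2 bases, GAAA on both strands, in RefSeq windows (GRCh38.p14) from 250 bases before to 50 bases after each start. It was present in 22 of the 26 induced members with a window (84.6%), against 1195 of 27305 genes overall (4.38%). Among the sensing and signal genes, 1 of 9 held it, and this was IFIH1. HERC6, IFI35, IRF1 and OAS1 had a window without these letters. The palindrome TTCNNNGAA, to which STAT dimers can bind, was present in 10 of the 26 induced genes (38.5%) and in 2560 of 27305 genes (9.38%). A match is a description of the letters and was not tested for binding.

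The stretches below belong to members that differed at least 2-fold between a resistant line and its parent and held a core before the start, with ISG15 added as a well-known ISRE gene and the element shared by PARP9 and DTX3L. They are written 5′ to 3′ on the gene's strand, with the core in capitals, and TTTC at the ends of a core marks a match on the other strand.
BST2, chr19:17405735-17405770, minus strand: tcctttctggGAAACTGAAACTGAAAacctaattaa
ISG15, chr1:1013374-1013409, plus strand: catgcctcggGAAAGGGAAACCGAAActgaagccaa
OAS3, chr12:112938321-112938350, plus strand: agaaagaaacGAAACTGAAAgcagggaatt
IFIT1, chr10:89392497-89392539, plus strand: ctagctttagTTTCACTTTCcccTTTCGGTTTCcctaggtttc
IFIH1, chr2:162318818-162318853, minus strand: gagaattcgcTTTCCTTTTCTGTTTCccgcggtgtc
IFI44, chr1:78649761-78649788, plus strand: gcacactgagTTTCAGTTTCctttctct
PARP14, chr3:122680800-122680829, plus strand: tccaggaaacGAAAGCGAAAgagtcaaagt
PARP9 and DTX3L, chr3:122564322-122564351, plus strand: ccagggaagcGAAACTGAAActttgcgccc

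In BST2, ISG15 and IFIH1, 2 cores overlap by sharing a GAAA, and in IFIT1 the 2 cores are apart. OAS3 and IFIH1 each held a further core nearer the start, which is not printed. PARP9 and DTX3L lie head to head, and the same bases form the core of both, from 41 to 32 bases before the PARP9 start and from 6 bases before to 3 bases after the DTX3L start.

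**Figure D1:**
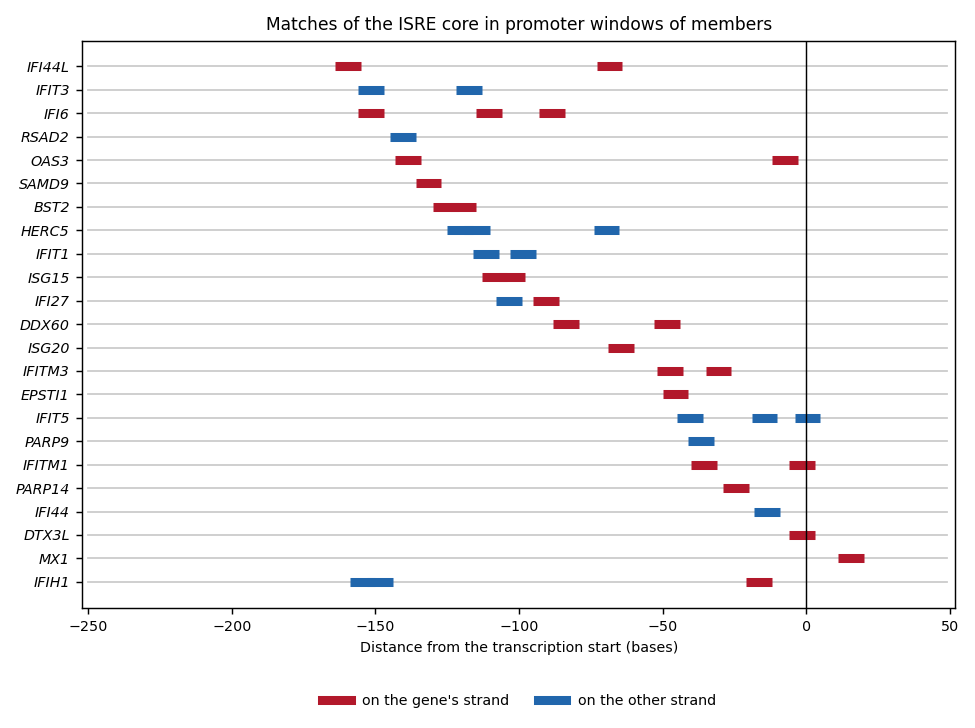
Position of each ISRE core in the promoter windows of 23 members, with the distance from the RefSeq start in bases on the horizontal axis and 1 row per gene. Red marks a match on the gene's strand and blue a match on the other strand. Of the genes shown, 22 are induced members and the other is IFIH1.

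Library totals ran from 19950537 to 26394267 counts. Values are CPM, counts scaled to a common library size, after TMM normalization, and 3 counts correspond to 0.112 to 0.147 CPM. Intervals are 95% intervals of counting error only, and they say nothing of the spread between cultures. All 10 luminal prostate markers were listed in the table, but the LNCaP library stood apart in KLK3, which encodes prostate-specific antigen, at 53.1 CPM against 1870 to 2685 CPM in the other lines. Every value of LN-OlapR against LNCaP and of C4-2B against LNCaP rests on that library, and with 1 library per line none can be given without it. Of 7 immune markers, only CD14 was listed, at 0.21 to 0.58 CPM, and PTPRC had no entry. Of 8 fibroblast and endothelial markers, 4 were listed, and their summed level was 24.3 CPM in LNCaP against 14.7 in LN-OlapR, and 31.1 in C4-2B against 11.4 in 2B-OlapR. COL1A1 and VWF carried that sum, and PDGFRB went the other way in LN-OlapR, with 19 counts in LNCaP and 48 in LN-OlapR. COL3A1 had 29 counts in LNCaP against 2 in LN-OlapR, and 3 in C4-2B against 1 in 2B-OlapR. The part of these markers in the results was not tested. In bulk RNA, fewer cells carrying a transcript and less of it per cell cannot be told apart.

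Most induced genes were detected in all 4 lines, many at low levels; IFI44L had 0 counts in LN-OlapR and 2B-OlapR, and RSAD2 had 0 in C4-2B. The summed normalized level of the 32 induced genes was 305.2 CPM in LNCaP against 296.4 in LN-OlapR, and 255.4 in C4-2B against 412.1 in 2B-OlapR. BST2 made up part of the excess of 2B-OlapR over its parent. Without BST2, the sum was 323.5 CPM in 2B-OlapR against 250.7 in C4-2B, and 304.9 in LNCaP. LNCaP had the highest level of 13 of the 32 induced genes, 2B-OlapR of 11, LN-OlapR of 7 and C4-2B of 1. The same ranking was not made over all genes. It also includes genes with few counts, such as MX2 at 4 to 6, whose order is within counting error. No interferon gene among IFNA1, IFNB1, IFNE, IFNG, IFNK and IFNL1 to IFNL3 had an entry in the table, in which the lowest total of a gene over the 4 libraries was 10 counts.

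**Figure D2:**
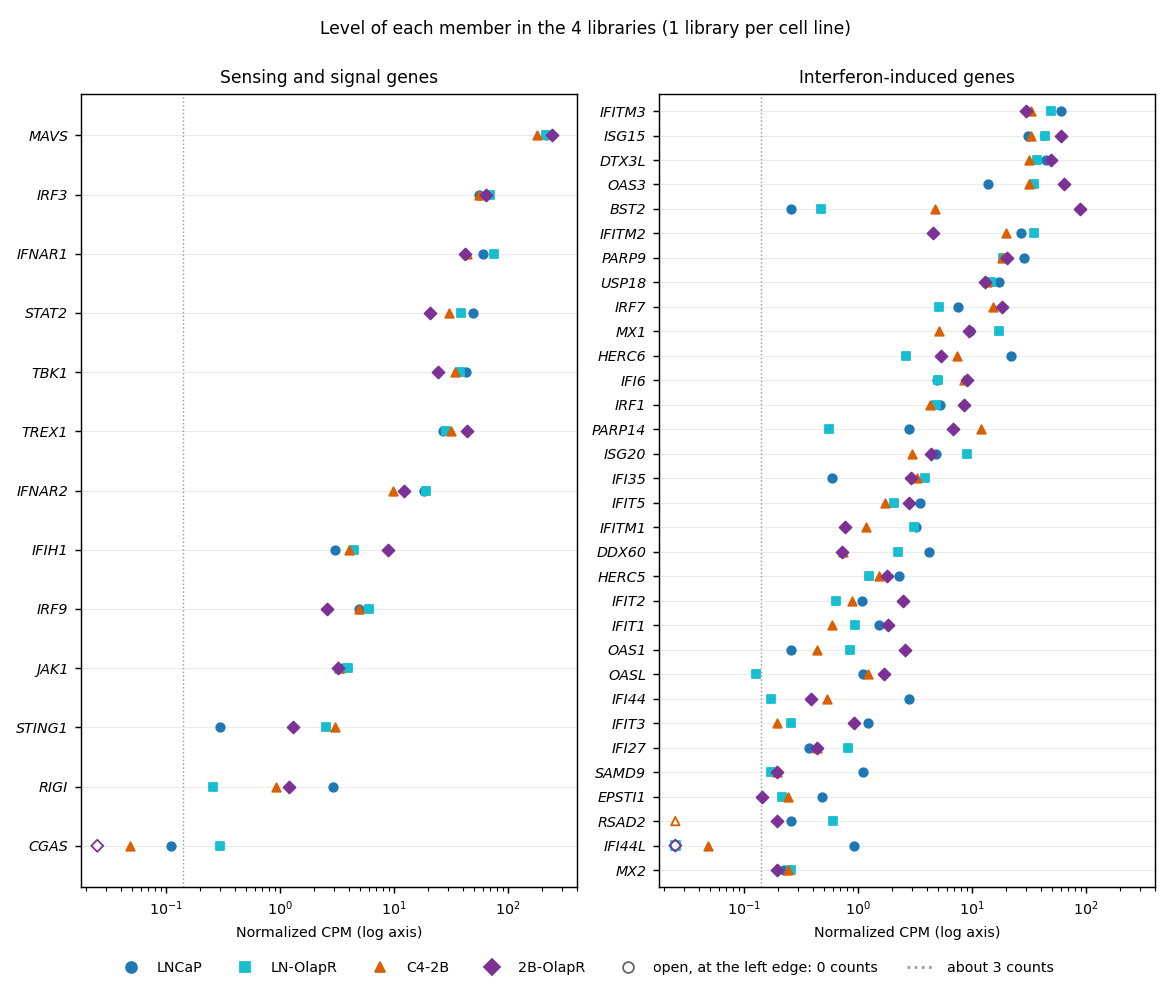
Normalized level of each of the 45 members in the 4 lines, on a logarithmic CPM axis, with sensing and signal genes in one panel and induced genes in the other. Open markers at the left edge stand for 0 counts and the dotted line for about 3 counts. MAVS is the highest member in every line on this scale, which is not corrected for length, and IFI44L, CGAS and RSAD2 reach 0 counts in at least 1 line.

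The receptor and kinase step was present but uneven. Compared per kilobase of the longest annotated transcript (GENCODE 29), JAK1 was at 0.71 CPM per kb in LNCaP against 0.78 in LN-OlapR, and 0.66 in C4-2B against 0.64 in 2B-OlapR. The partner kinase TYK2 was at 12.3, 14.2, 11.9 and 14.2 CPM per kb in the same order. JAK1 transcript was thus low in every line beside TYK2 and hardly varied, with a log2 ratio of 0.14 (-0.29 to 0.57) for LN-OlapR against LNCaP and -0.04 (-0.55 to 0.47) for 2B-OlapR against C4-2B.

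STAT2, the transactivating subunit of the ISRE-binding complex, had 1337 counts in LNCaP against 913 in LN-OlapR, and 620 in C4-2B against 431 in 2B-OlapR. It was lower in each resistant line than in its parent, with log2 ratios of -0.35 (-0.47 to -0.22) and -0.54 (-0.72 to -0.36). IRF9, the DNA-binding subunit, had 133, 140, 102 and 54 counts in the same order of lines, so that the 2B-OlapR library alone was low, at a log2 ratio of -0.93 (-1.44 to -0.45) against C4-2B. STAT2 and IRF9 were both lower in 2B-OlapR than in its parent, and IRF9 shares sequence with an overlapping gene on its strand.

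Of the receptor chains, IFNAR1 was at 60.4 CPM in LNCaP against 75.3 in LN-OlapR, and 43.8 in C4-2B against 41.6 in 2B-OlapR. IFNAR2, the other chain, was at 18.2, 18.9, 9.77 and 12.3 CPM. Both chains were lower in the C4-2B libraries than in the LNCaP libraries. JAK2, a kinase of the type II receptor and no member, passed 2-fold in LN-OlapR and in C4-2B against LNCaP. Its level was 14.1 CPM in LNCaP against 6.82 CPM in LN-OlapR, 5.47 CPM in C4-2B and 5.02 CPM in 2B-OlapR.

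The RNA sensors RIGI and IFIH1 went opposite ways in LN-OlapR. RIGI (chr9:32455705-32526324) had 78 counts in LNCaP against 6 in LN-OlapR, and 19 in C4-2B against 25 in 2B-OlapR. LNCaP alone was high, and RIGI was 10.5-fold lower in LN-OlapR (interval 4.96 to 31.7) and 3.06-fold lower in C4-2B (1.87 to 5.47). IFIH1 (chr2:162267079-162318703) had 81, 104, 83 and 184 counts, and 2B-OlapR stood above the others, 2.18-fold higher than C4-2B (1.68 to 2.87). For LN-OlapR against LNCaP the log2 ratio of IFIH1 was 0.56 (0.13 to 1.0). MAVS, the adaptor through which both sensors signal, had 5831, 5079, 3699 and 5049 counts, the most of any member before correction for length. Its log2 ratio was 0.01 (-0.05 to 0.06) for LN-OlapR against LNCaP and 0.43 (0.37 to 0.49) for 2B-OlapR against C4-2B. Per kilobase, MAVS was at 15.4 to 20.8 CPM per kb in the 4 lines, where RIGI was at 0.06 to 0.67, IFIH1 at 0.84 to 2.47 and IFITM3 at 36.8 to 74.5.

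On the DNA side, the sensor was at or near the detection floor and the adaptor was low. CGAS had 3 counts in LNCaP against 7 in LN-OlapR, and 1 in C4-2B against 0 in 2B-OlapR, so that 3 of the 4 libraries were at or under 3 counts. STING1 (chr5:139475534-139482935), the adaptor of cGAS, had 8, 59, 62 and 27 counts. LNCaP was the low library. STING1 was 8.07-fold higher in LN-OlapR than in its parent (4.04 to 20.6) and 2.30-fold lower in 2B-OlapR than in its parent (1.46 to 3.80). TREX1, an exonuclease that clears cytosolic DNA, had 722, 674, 651 and 902 counts, and its log2 ratio was 0.45 (0.31 to 0.60) for 2B-OlapR against C4-2B and 0.11 for LN-OlapR against LNCaP. TREX1 overlaps ATRIP on the same strand, and reads of the shared part could be assigned to either. IRF9 and IFNAR2 likewise overlap AL136295.5 and AP000295.1, protein-coding genes on their own strands, so that their counts are uncertain too. IRF3, JAK1 and RSAD2 overlap BCL2L12, RAVER2 and CMPK2 on the opposite strand.

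Downstream of both routes, TBK1 had 1142 counts in LNCaP against 885 in LN-OlapR, and 706 in C4-2B against 508 in 2B-OlapR. It was lower in both resistant lines, with log2 ratios of -0.16 (-0.29 to -0.04) and -0.49 (-0.66 to -0.33). IRF3 had 1513, 1636, 1141 and 1341 counts and was higher in both, with log2 ratios of 0.32 (0.22 to 0.42) and 0.21 (0.10 to 0.33). These differences are all under 2-fold.

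For LN-OlapR against LNCaP, a gene was analyzed where its mean over both libraries was at least 1 CPM. Of the 45 members, 33 were analyzed, 6 of them only through 1 of the libraries (IFI35, IFI44, IFIT1, PARP14, RIGI and STING1), so that a difference was built into their entry. At least 2-fold higher were 3 members, IFI35, OAS3 and STING1, against a background of 4.64% of 15373 genes. At least 2-fold lower were 4 members, HERC6, IFI44, PARP14 and RIGI, against a background of 4.83%. Of the 21 induced genes analyzed, the interval lay above 0 in 6 and below 0 in 11, where it did so in 31.4% and 31.0% of all genes, and their median log2 ratio was -0.25, where that of all genes was -0.00.

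For 2B-OlapR against C4-2B, 34 members were analyzed, 4 of them only through 1 library. At least 2-fold higher were 6 members, BST2, OAS1, IFIT1, IFIT2, OAS3 and IFIH1, against a background of 4.42% of 15527 genes. At least 2-fold lower were IFITM2 and STING1, against 5.65%. Of the 22 induced genes analyzed, the interval lay above 0 in 12 and below 0 in 3, where it did so in 31.2% and 30.5% of all genes, with a median log2 ratio of 0.50 beside -0.00 for all genes. Over all 32 induced genes listed, low ones included, the median was 0.20, and over those with a mean of at least 10 CPM it was 0.26. Since OAS1, IFIT1 and IFIT2 passed only through 2B-OlapR, they had to be higher there to be analyzed.

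For C4-2B against LNCaP, which compares the parents, 35 members were analyzed, 7 of them only through 1 library (BST2, DDX60, IFI35, IFI44, IFIT1, RIGI and STING1). At least 2-fold higher in C4-2B were 6 members, BST2, IFI35, PARP14, OAS3, IRF7 and STING1, against a background of 8.00% of 15580 genes. At least 2-fold lower were 7 members, DDX60, IFI44, HERC6, IFITM1, IFIT1, IFIT5 and RIGI, against 7.18%. Among these calls, BST2, IFI35 and STING1 passed only through C4-2B, and DDX60, IFI44, IFIT1 and RIGI only through LNCaP. Their direction was thus built into their entry. Of the 23 induced genes analyzed, the interval lay above 0 in 6 and below 0 in 13, where it did so in 33.8% and 36.0% of all genes. Their median log2 ratio was -0.49, beside -0.02 for all genes. This comparison shares the LNCaP library with the first and the C4-2B library with the second, so that values of 1 gene in them are not independent.

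**Figure D3:**
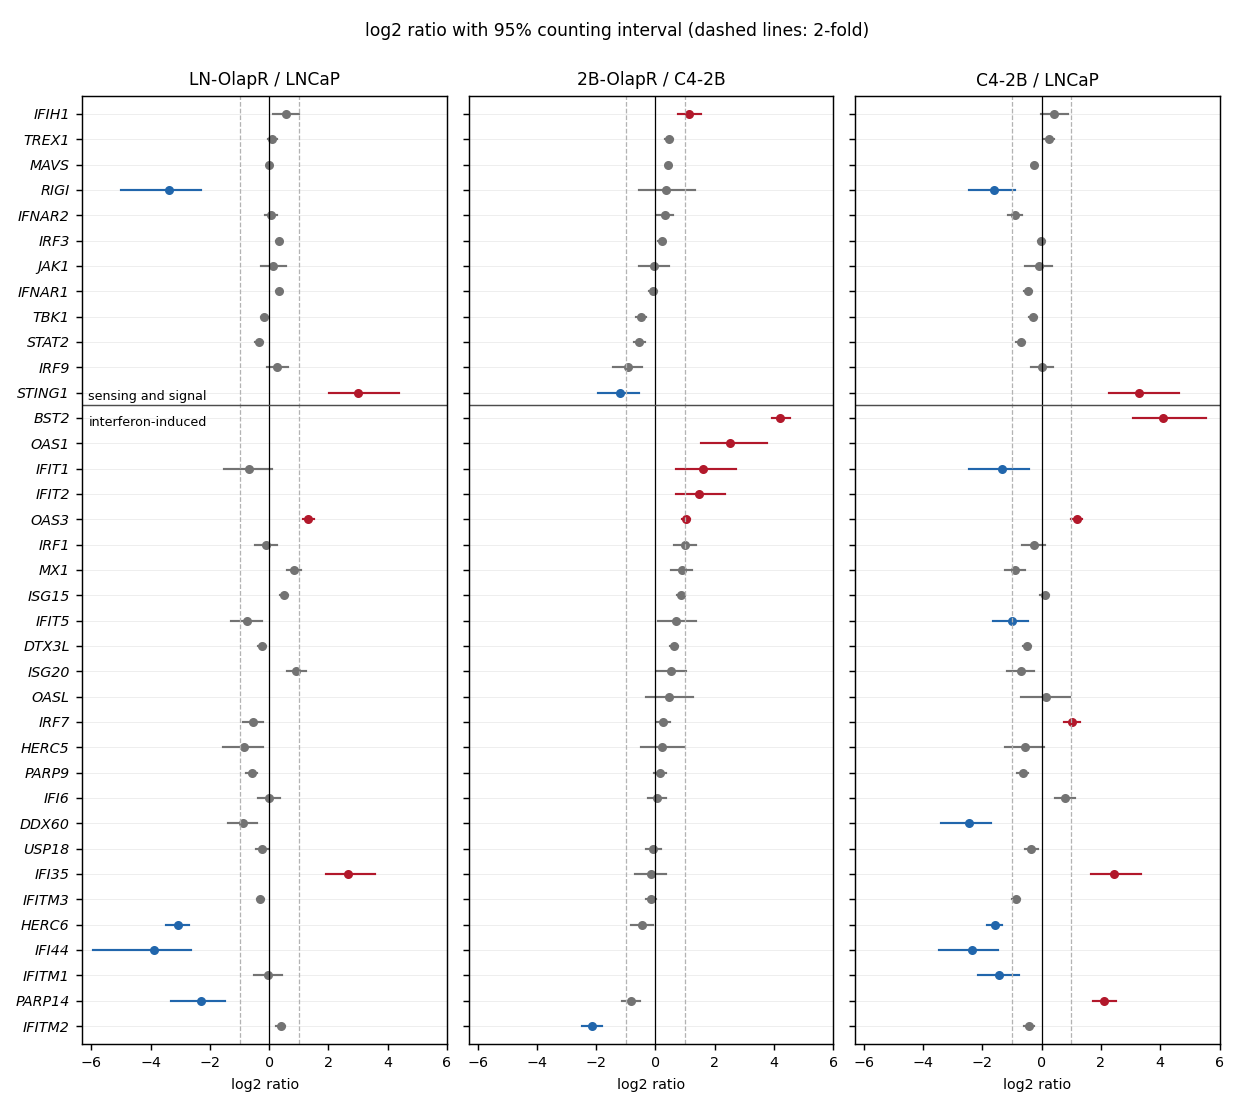
Log2 ratio of each member analyzed, with its 95% counting interval, in 3 panels for LN-OlapR against LNCaP, 2B-OlapR against C4-2B and C4-2B against LNCaP. Red marks members at least 2-fold higher, blue at least 2-fold lower, and the dashed lines 2-fold. In all, 37 members were analyzed in at least 1 comparison, and BST2 is the most distant point in the 2B-OlapR panel.

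BST2 (chr19:17402939-17405648) encodes tetherin, which holds budding enveloped viruses at the cell surface. It had 7 counts in LNCaP against 11 in LN-OlapR, and 97 in C4-2B against 1835 in 2B-OlapR. The LNCaP libraries were near the detection floor and 2B-OlapR was high, 18.6-fold above C4-2B (15.2 to 23.2), which was itself 17.1-fold above LNCaP (8.51 to 46.5). The log2 ratio for LN-OlapR against LNCaP was 0.82 with an interval from -0.64 to 2.46, and BST2 was too low to be analyzed there. Per kilobase, BST2 was at 86.9 CPM per kb in 2B-OlapR, above ISG15 at 76.6, and at 0.26 CPM per kb in LNCaP, where ISG15 was at 39.6.

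The genes beside BST2 were looked at after its values were seen. BISPR, a non-coding gene next to BST2, had 11, 2, 11 and 102 counts in the same order of lines. It too was high in the 2B-OlapR library, with a log2 ratio of 3.14 (2.30 to 4.24) against C4-2B. The protein-coding neighbours MVB12A and GTPBP3 were level, with log2 ratios of 0.01 (-0.12 to 0.14) and -0.01 (-0.13 to 0.11).

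OAS3 and MX1 were higher in each resistant line than in its parent. OAS3, which makes the 2-5A messenger that activates RNase L, had 374 counts in LNCaP against 810 in LN-OlapR, and 646 in C4-2B against 1341 in 2B-OlapR. The resistant line was the higher of each pair, 2.49-fold in LN-OlapR (2.21 to 2.83) and 2.05-fold in 2B-OlapR (1.86 to 2.26). Under scaling by total counts the latter log2 ratio was 0.99, just under the 2-fold limit.

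OAS1, of the same family and the same cluster on chromosome 12, had 7, 20, 9 and 54 counts. It was 5.67-fold higher in 2B-OlapR than in its parent (2.90 to 13.7), and for LN-OlapR against LNCaP, where it was too low to be analyzed, the ratio was 3.15 (1.34 to 9.22). MX1, a dynamin-like GTPase that traps viral nucleocapsids, had 259, 402, 105 and 196 counts. Its log2 ratio was 0.84 (0.61 to 1.07) in the LNCaP pair and 0.88 (0.53 to 1.24) in the C4-2B pair, and the difference between pairs was 0.04 (-0.37 to 0.45). OASL, an OAS relative without the enzyme activity, had 30, 3, 25 and 35 counts, too few to be analyzed in LN-OlapR against LNCaP, where the log2 ratio was -2.92 (-5.47 to -1.43). MX2 was at 4 to 6 counts in all libraries.

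ISG15, a ubiquitin-like protein that is attached to other proteins, had 837 counts in LNCaP against 1027 in LN-OlapR, and 680 in C4-2B against 1249 in 2B-OlapR. It was higher in both resistant lines, with log2 ratios of 0.50 (0.37 to 0.63) and 0.86 (0.72 to 1.0), and the parents were close to each other at 0.09 (-0.05 to 0.24). HERC5, the main human ISG15 ligase, had 61, 29, 31 and 37 counts, and its log2 ratio was -0.86 (-1.56 to -0.21) in LN-OlapR and 0.23 (-0.49 to 0.97) in 2B-OlapR. USP18, which removes ISG15 and restrains the receptor, was at 17.4, 14.7, 13.6 and 13.0 CPM. HERC6 (chr4:88378739-88443111), a ligase related to HERC5, had 595, 61, 150 and 111 counts. LNCaP was the high library, and HERC6 was 8.40-fold lower in LN-OlapR (6.50 to 11.2) and 3.01-fold lower in C4-2B (2.52 to 3.64).

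The IFIT genes encode proteins that hinder translation of viral RNA, lie in 1 cluster on chromosome 10, and were low in every line. IFIT1 had 41 counts in LNCaP against 22 in LN-OlapR, and 12 in C4-2B against 38 in 2B-OlapR. IFIT2 had 29, 15, 18 and 51 counts, and IFIT3 had 33, 6, 4 and 19. IFIT5 had 94, 48, 35 and 58 counts. For each of the 4 genes the count was lower in LN-OlapR than in LNCaP and higher in 2B-OlapR than in its parent. IFIT3 was too low to be analyzed in either pair. IFIT2 was too low in LN-OlapR against LNCaP, where its log2 ratio was -0.72 (-1.75 to 0.20). For 2B-OlapR against C4-2B, IFIT1 was 3.04-fold higher (1.60 to 6.57) and IFIT2 2.75-fold higher (1.61 to 5.09). For LN-OlapR against LNCaP, the log2 ratio of IFIT1 was -0.68 (-1.51 to 0.09) and that of IFIT5 was -0.76 (-1.30 to -0.25). LIPA overlaps this cluster on the opposite strand, and whether reads were counted by strand is not given in the sources used here. LIPA had 939, 909, 502 and 685 counts and log2 ratios of 0.16 for LN-OlapR against LNCaP and 0.43 (0.26 to 0.60) for 2B-OlapR against C4-2B.

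**Figure D4:**
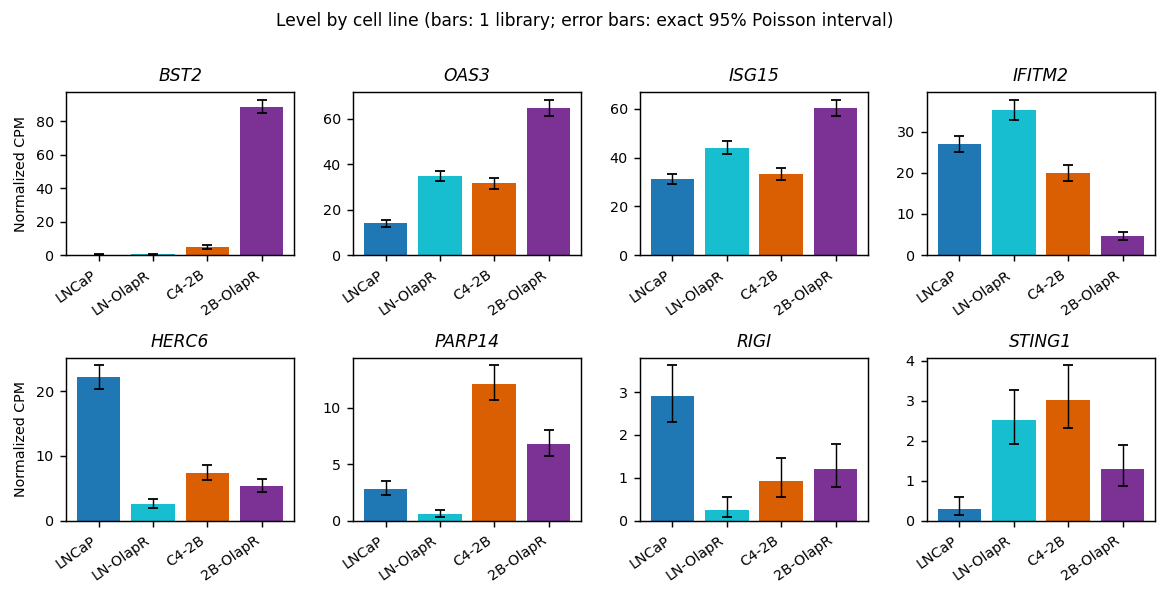
Normalized CPM of 8 members in the 4 lines, as bars from 0 with exact Poisson 95% intervals of counting error. BST2 is high in 2B-OlapR alone, OAS3 and ISG15 are higher in each resistant line than in its parent, IFITM2 is low in 2B-OlapR, HERC6 and RIGI are high in LNCaP, PARP14 is highest in C4-2B, and STING1 is low in LNCaP.

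The IFITM genes encode membrane proteins that block viral fusion and lie together on chromosome 11. IFITM2 had 724 counts in LNCaP against 822 in LN-OlapR, and 408 in C4-2B against 94 in 2B-OlapR. The 2B-OlapR library was the low one, 4.38-fold under C4-2B (3.50 to 5.56), whereas LN-OlapR was above LNCaP, at a log2 ratio of 0.39 (0.24 to 0.53). IFITM3 had 1619, 1143, 678 and 616 counts, with log2 ratios of -0.30 (-0.41 to -0.19) in LN-OlapR and -0.16 (-0.32 to 0.00) in 2B-OlapR. IFITM1 had 86, 72, 24 and 16 counts and was lower in both C4-2B libraries than in both LNCaP libraries. The IFITM transcripts are near-identical and IFITM1 and IFITM2 overlap on 1 strand, so that the split of reads among them is uncertain.

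PARP9 and DTX3L, which form a complex that adds ADP-ribose to ubiquitin, share the promoter element printed above. PARP9 had 766 counts in LNCaP against 440 in LN-OlapR, and 373 in C4-2B against 422 in 2B-OlapR. DTX3L had 1196, 872, 649 and 1014 counts. Both were lower in LN-OlapR than in LNCaP, with log2 ratios of -0.59 (-0.77 to -0.42) for PARP9 and -0.25 (-0.38 to -0.12) for DTX3L. In 2B-OlapR against C4-2B they parted, at 0.16 (-0.04 to 0.36) for PARP9 and 0.63 (0.48 to 0.77) for DTX3L.

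PARP14 (chr3:122680618-122730840), a mono-ADP-ribosyltransferase in the same gene cluster, had 76, 13, 248 and 141 counts. It was lower in each resistant line than in its parent, 4.92-fold in LN-OlapR (2.80 to 9.96) and by a log2 ratio of -0.83 (-1.14 to -0.53) in 2B-OlapR. The parents themselves differed by 4.27-fold (3.30 to 5.62), with C4-2B the higher.

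Among the induced transcription factors, IRF1 had 140 counts in LNCaP against 112 in LN-OlapR, and 88 in C4-2B against 178 in 2B-OlapR. Its log2 ratio for 2B-OlapR against C4-2B was 0.99 (0.62 to 1.38), and IRF1-AS1, which overlaps it on the other strand, had 1.06 (0.57 to 1.57). IRF7, which amplifies interferon production, had 203, 121, 314 and 381 counts. It was lower in LN-OlapR than in LNCaP, at a log2 ratio of -0.54 (-0.88 to -0.21), and higher in 2B-OlapR than in its parent, at 0.26 (0.04 to 0.48).

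IFI44, IFI44L, DDX60 and SAMD9 were highest in LNCaP. IFI44 had 76 counts in LNCaP against 4 in LN-OlapR, and 11 in C4-2B against 8 in 2B-OlapR, and was 14.8-fold lower in LN-OlapR (6.18 to 62.1). Its neighbour IFI44L had 25, 0, 1 and 0 counts, and was 7.23-fold lower in LN-OlapR when that library was set at a floor of 3 counts, with a counting interval that began at 5.46-fold. DDX60, a helicase-like antiviral protein, had 112, 52, 15 and 15 counts. RIGI, too, was highest in that library. SAMD9, an antiviral protein that inhibits translation, had 30 counts in LNCaP and 4 in each other line.

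IFI35 was the reverse, with 16, 90, 67 and 61 counts, lowest in LNCaP and 6.32-fold higher in LN-OlapR (3.78 to 11.8). ISG20, an exonuclease of RNA, had 130, 212, 61 and 90 counts, with log2 ratios of 0.91 (0.59 to 1.24) and 0.54 (0.06 to 1.04) in the resistant lines. IFI6, a mitochondrial protein known to restrain apoptosis, was level within each pair, at log2 ratios of 0.01 and 0.06, and higher in C4-2B than in LNCaP at 0.79 (0.45 to 1.12). EPSTI1 was at 3 to 13 counts, IFI27 at 9 to 19 and RSAD2, the antiviral enzyme viperin, at 0 to 14, too low to be analyzed in any comparison.

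The resistant lines were also set against each other by the difference between their log2 ratios, 2B-OlapR pair minus LN-OlapR pair, since these pairs share no library. Of the 18 induced genes analyzed in both pairs, 5 were higher in both resistant lines, 4 lower in both, 7 higher in 2B-OlapR and lower in LN-OlapR, and 2 the reverse. Over the 14602 genes analyzed in both pairs these shares were 28.5%, 29.1%, 21.2% and 21.2%. The interval of the difference lay above 0 in 10 of the 18 and below 0 in 3, and over all genes in 28.9% and 30.5%. RIGI had a difference of 3.76 (2.32 to 5.19) and HERC6 of 2.62 (2.10 to 3.14), both with LN-OlapR far below its parent. IFIT1 had a difference of 2.28 (1.10 to 3.46). In the other direction were IFI35 at -2.81 (-3.72 to -1.91) and OAS3 at -0.28 (-0.51 to -0.06). These intervals cover counting error only, and no difference was tested. RIGI and IFIT1 passed the level minimum only through LNCaP in the LN-OlapR pair and only through 2B-OlapR in its pair. Their positive difference was thus built into their entry, and IFIT1 is among the 7 and the 10 above. In the LN-OlapR pair, IFI35 passed only through LN-OlapR and PARP14 only through LNCaP.

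Genes of the same pathway outside the member list were counted from a wider list. Of 43 further induced genes, 35 were listed. In LN-OlapR against LNCaP, 20 were analyzed and none was 2-fold higher or lower. In 2B-OlapR against C4-2B, 23 were analyzed, 5 were at least 2-fold higher and 1 was lower, beside 4.42% and 5.65% of all genes, with a median log2 ratio of 0.26. The higher ones were PLSCR1, GBP2, LGALS3BP, CMPK2 and TDRD7, of which PLSCR1 and GBP2 passed the minimum only through 2B-OlapR. LGALS3BP, a secreted glycoprotein, was at 14.5 CPM in LNCaP against 11.4 in LN-OlapR, and 12.6 in C4-2B against 39.7 in 2B-OlapR, a log2 ratio of 1.66 (1.46 to 1.87) against C4-2B. TNFSF10, which encodes the death ligand TRAIL, had 4, 29, 50 and 12 counts, passed only through C4-2B, and was lower in 2B-OlapR than in its parent at -2.03 (-3.12 to -1.15). Of 18 further sensing genes, 15 were analyzed and NLRC5, an activator of MHC class I genes, was the one that passed 2-fold within a resistant pair, at a log2 ratio of 1.35 (0.72 to 2.05) in 2B-OlapR. Of 5 brakes on the pathway, 3 were analyzed and none passed 2-fold.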

How the data were processed

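Total RNA of 4 cell lines, 1 library each, was sequenced as stranded mRNA (KAPA kit). The authors deposited estimated counts per gene, 46.2% of them not whole. The submitters' processing notes name STAR and Partek and the build GRCh38/hg38; the counting tool, its strand setting and the annotation version are not given in the sources used here. Counts were rounded and scaled by TMM factors (edgeR 4.0.16, R 4.3.3) over all 4 libraries, with totals of 19950537 to 26394267. Ratios used a pseudocount of 0.5 counts and exact conditional binomial 95% intervals; levels used exact Poisson intervals. These cover counting error only, and reads without molecular identifiers are not independent molecules. A gene was analyzed at a mean of at least 1 CPM over 2 libraries. Rules for 2-fold differences stood in for tests, and the code was tested on simulated data. All members were eligible to be named, and genes of the wider lists by a 2-fold difference or as the extreme of a list, with those a result turns on. Gene coordinates and lengths are of GENCODE 29. Promoters are from RefSeq, GRCh38.p14; of the 45 members, 35 had a window, and STING1, OASL, USP18, MX2, IFNAR2, IFITM2, IRF7, IFIT2, CGAS and IRF3 had none here. The members and lists were chosen with earlier results of these data known. Alternatives were other scalings (DESeq2 1.42.0 size factors, upper quartile, total counts), pseudocounts, level minimums and folds. A further alternative counted RIGI, IFIH1, STAT2 and IRF9 as induced genes.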

Additional observations from a re-analysis of the deposited data

Results flagged for a closer look

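Differences of log2 ratios between the 2B-OlapR pair and the LN-OlapR pair are listed here for genes with a mean of at least 1 CPM in both pairs, where the intervals of both pairs excluded 0 in opposite directions, or where the medians of a list had opposite signs. With 1 library per line, none of these differences was tested. The share of all genes that meet the interval rule was not computed. By sign alone, 21.2% of 14602 genes were higher in 2B-OlapR and lower in LN-OlapR, and 21.2% were the reverse. DTX3L had a difference of 0.88, IFIT5 of 1.46 and IRF7 of 0.80, each higher than its parent in 2B-OlapR and lower in LN-OlapR. IFITM2 had a difference of -2.52 and STING1 of -4.21, each lower than its parent in 2B-OlapR and higher in LN-OlapR. The LN-OlapR value of STING1 rests on 8 counts in LNCaP. STING1 passed the level minimum in that pair only through LN-OlapR, so that its direction there was built into its entry. The median log2 ratio of the induced genes differed by 0.75 between the pairs, over the genes analyzed in each. These sets of genes differ, and part of the difference was built into their entry. OAS1, IFIT1 and IFIT2 passed only through 2B-OlapR in its pair. IFI44, IFIT1 and PARP14 passed only through LNCaP in the other pair, and IFI35 only through LN-OlapR. Over all 32 induced genes listed, the medians were 0.20 in the 2B-OlapR pair and -0.27 in the LN-OlapR pair.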

How the results depend on the processing

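No paired analysis was possible because each cell line had 1 library and the labels carry no replicate numbers, and no replicate could be left out. Of 408 single-gene values under alternatives, 407 moved by less than their counting interval; the other was MAVS for LN-OlapR against LNCaP, at -0.08 under total counts. OAS3 in 2B-OlapR was at 0.99 under total counts, IRF1 in 2B-OlapR at 1.0 with DESeq2 size factors and 1.02 with upper quartile factors, and IFIT5 for C4-2B against LNCaP at -0.99 with upper quartile factors and -0.98 with a pseudocount of 2. The medians of the induced and of the sensing and signal genes kept their signs under the alternatives run, but over all listed genes, low ones included, the median of the sensing and signal genes in 2B-OlapR was -0.04 in place of 0.09; that of the induced genes in 2B-OlapR ran from 0.20 at a minimum of 0.1 CPM to 0.53 with upper quartile factors.

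Counts of members past 2-fold depended on the level minimum and the fold, which change how many genes qualify. The shares over all genes were not computed at these other settings. The counts below therefore show only how the calls move, and cannot be set against a background. For LN-OlapR against LNCaP, members higher and lower were 7 and 9 at a minimum of 0.1 CPM, 1 and 1 at 10 CPM, and 5 and 9 at 1.5-fold; induced genes were 5 and 8, 1 and 1, and 4 and 8. For 2B-OlapR against C4-2B, members were 2 and 1 at 10 CPM and 11 and 4 at 1.5-fold; induced genes higher were 2 and 10, and lower at 1.5-fold 2. For C4-2B against LNCaP, members lower were 11 at 0.1 CPM, 1 at 10 CPM and 13 at 1.5-fold, and higher 2 at 10 CPM; induced genes lower were 10, 1 and 10, and higher 2 at 10 CPM. At 3 counts or fewer in 1 to 3 members per library, depth limits what can be said of CGAS, IFI44L and RSAD2.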

Other observations

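Among the wider induced genes, 6 of the 21 analyzed for C4-2B against LNCaP were at least 2-fold higher in C4-2B and 1 was lower, beside 8.00% and 7.18% of all genes; TNFSF10, among the higher, passed the level minimum only through C4-2B. LY6E, a membrane protein that hinders viral entry, was at 74.3 CPM in LNCaP against 132.4 in LN-OlapR, and 244.2 in C4-2B against 150.0 in 2B-OlapR. It was higher in LN-OlapR than in LNCaP, at a log2 ratio of 0.83 (0.75 to 0.92), and lower in 2B-OlapR than in its parent, at -0.70 (-0.77 to -0.64). PARP10, a mono-ADP-ribosyltransferase, was at 32.9 CPM in LNCaP against 46.1 in LN-OlapR, and 84.2 in C4-2B against 139.4 in 2B-OlapR. TRIM14, an adaptor of the MAVS pathway, was at 65.8, 52.8, 150.1 and 142.8 CPM in the same order. CMPK2, a mitochondrial nucleotide kinase that lies beside RSAD2, had a log2 ratio of -0.72 (-1.22 to -0.26) for LN-OlapR against LNCaP and 1.52 (1.02 to 2.07) for 2B-OlapR against C4-2B.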
